A study of Mus musculus with 30 samples.

Results

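The cadmium response common to all the exposures of this series was examined over every library, 30 of 30, by fitting a single cadmium effect across the 3 experimental settings. The libraries were made from pancreatic islets, the small endocrine organs of the pancreas in which beta cells secrete insulin, of male wild-type C57BL/6N mice. In vivo, mice received vehicle or 1 mM CdCl2 over 6 weeks (5 vehicle and 4 cadmium libraries) or over 18 weeks (6 vehicle and 5 cadmium libraries). Ex vivo, islets were kept for 96 hours with vehicle or 0.5 uM CdCl2 (5 and 5 libraries). The labels name no transgene or mutation. Route of dosing, age and nature of the vehicle: not given in the sources used here. The labels do not say whether libraries of a group came from separate mice or cultures, so the p-values below measure the spread between libraries, which may be technical.

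Cadmium is a toxic divalent metal with no known function in mammals. Cells that take it up usually meet it with metallothioneins, small cysteine-rich proteins that bind zinc and cadmium and whose genes are switched on by the metal-sensing transcription factor MTF1 through metal response elements in their promoters. Beta cells are rich in zinc, which packs insulin into crystals inside the secretory granules. The exocrine tissue around the islets, acinar cells that make digestive enzymes and the ducts that drain them, is removed during islet isolation only in part, so its transcripts are measured along with those of the islet.

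A gene was taken to be called when the additive fit (setting plus treatment, quasi-likelihood test of edgeR) gave a Benjamini-Hochberg adjusted p under 0.05. Its direction in a setting was the sign of the cadmium minus vehicle difference of that setting in a fit of the 6 groups. Levels are CPM, counts scaled by a library size that was adjusted by TMM (trimmed mean of M values), and differences are log2 fold changes of cadmium over vehicle ± SE. Total counts per library ranged from 9092759 to 58366797, and the lowest were 3 libraries of 18 weeks (vehicle 4, vehicle 6 and cadmium 5). Insulin transcripts marked every library as islet, since Ins1 and Ins2 together took 10.4 to 21.9% of counts. Acinar markers took 2.78 to 8.39% of counts at 6 weeks, 0.269 to 19.8% at 18 weeks and 0.0082 to 0.0153% in culture.

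Across the settings, a small group of genes was higher in cadmium islets and no gene was called lower. Of 22721 genes tested with edgeR, 54 were called (0.238%). All 54 rose and 0 fell; at an unadjusted p under 0.05 the edgeR test had 1386 genes higher and 603 lower, and DESeq2 called 111 higher and 8 lower. The median log2 fold change of the 54 was 1.94, beside 0.003 for all genes tested. Of the 54, 14 were on the list of acinar markers, 1 on that of duct markers and 39 on neither. The acinar list holds 38 markers and is not complete. 1810009J06Rik and Gm5771 of the trypsinogen family are among the 39, so the 39 are not a count of genes foreign to acinar cells. The genes of smallest p were 1810009J06Rik, the trypsinogen gene Prss3, Cuzd1 of the zymogen granule, the tight junction claudin gene Cldn8 and the gap junction gene Gjb1. In bulk RNA, a change in the number of cells of a type cannot be told apart from a change in RNA per cell.

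The size of the effect varied by setting. Over the 54 genes the median log2 fold change was 0.71 at 6 weeks, 3.04 at 18 weeks and 0.38 in culture. The effect was highest at 18 weeks in 50 genes, at 6 weeks in 3 and in culture in 1. Fitted alone, 18 weeks had 18.2% of its tested genes at an unadjusted edgeR p under 0.05. The same share was 5.1% at 6 weeks and 5.5% in culture. The 54 were called on these same libraries, so this order of settings is no separate result, and its share over all genes was not computed. In 32 of the 54 (59.3%) the difference was positive in each of the 3 settings, beside 20.4% of all tested genes with 1 direction throughout (10.8% higher and 9.61% lower). The call itself favours genes with 1 direction, so the 59.3% is no separate evidence. The other 22 were higher in both in vivo settings and at or below 0 in culture. A test of whether the cadmium effect differs between settings had an unadjusted p under 0.05 in 42 of the 54 genes, beside 16.2% of all genes tested, and none of the 54 passed after adjustment (edgeR).

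Culture measured few of these genes well. The mean count in culture was under 10 per library in 43 of the 54, and in 22 of the 32 with 1 direction. A mean of 10 counts or more in culture was reached by 11 of the 54, beside 73.6% of all genes tested. These 11, listed after their values were seen, were Mt1, Synj2, Serpinb1a, Mmp7, Fam83f, Myo5c, Gabrp, Gm13381, Cachd1, Lamb3 and Gamt, and all but Synj2 had 1 direction. For the other genes a direction in culture rests on a handful of reads.

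**Figure D1:**
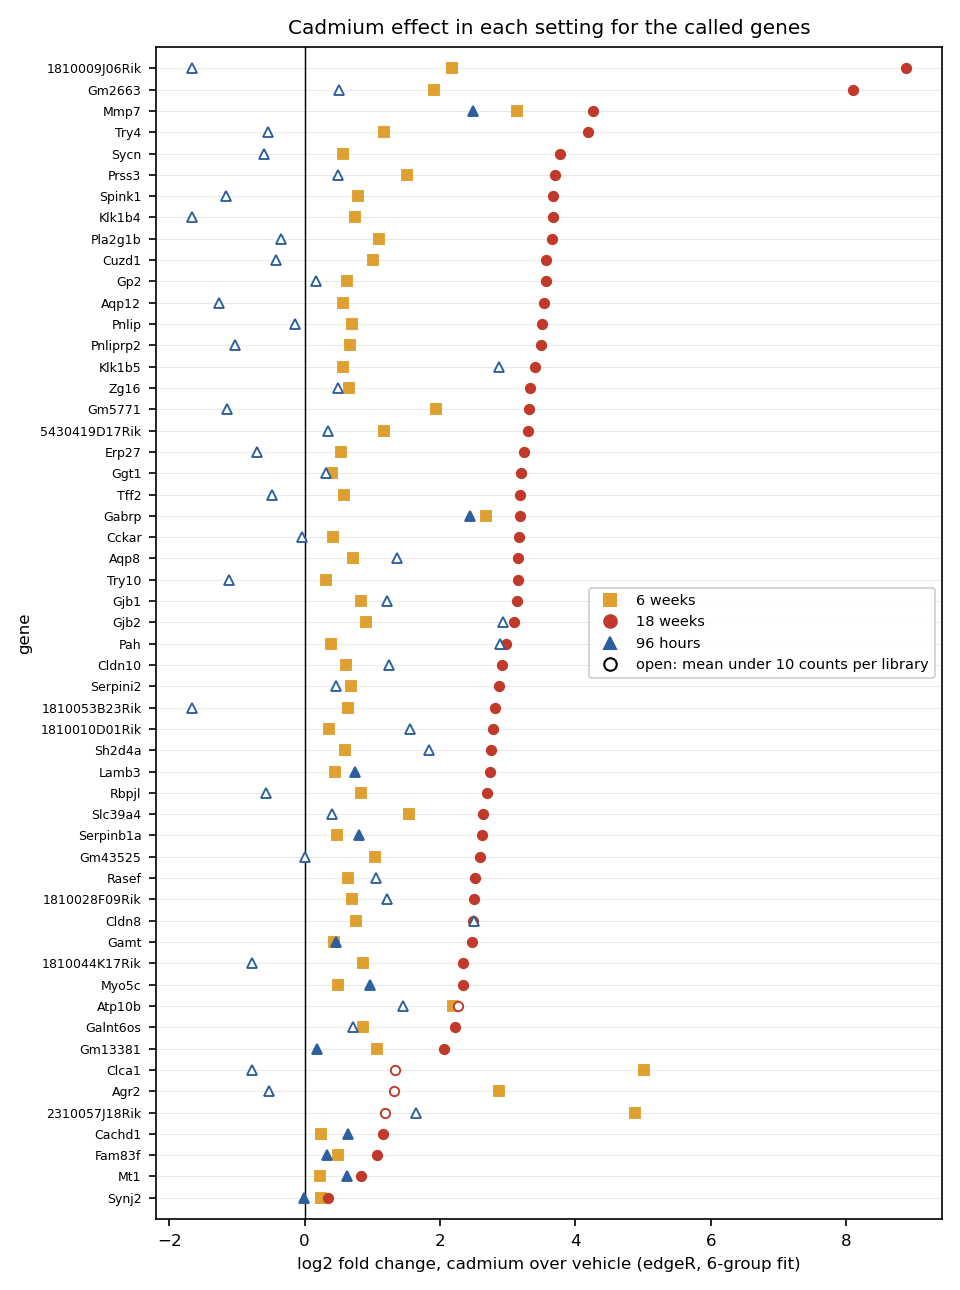
Log2 fold change of cadmium over vehicle (horizontal axis) in each of the 3 settings for the 54 called genes (vertical axis, ordered by the effect at 18 weeks); open symbols mark settings where the gene averaged under 10 counts per library. Red circles (18 weeks) lie farthest to the right for 50 genes, while most culture triangles are open and spread on both sides of 0.

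Metallothionein 1 had the most counts in culture of the 32 called genes with 1 direction, 6584 per library, and the next was Cachd1 with 38. Mt1 (chromosome 8, 94179082 to 94180327, plus strand, mm10) and its neighbour Mt2 (94172664 to 94173568) encode the metallothioneins that most tissues can induce. The 250 bases before the RefSeq start of each (build GRCm38.p6, plus strand), and of the MTF1 target and zinc exporter gene Slc30a1, are shown because these genes carry the metal response. Capitals mark the core of the metal response element, TGCACNC or TGCGCNC on either strand. Mt1 lies at chr8:94178839-94179088, Mt2 at chr8:94172368-94172617 and Slc30a1 at chr1:191906531-191906780.

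Mt1: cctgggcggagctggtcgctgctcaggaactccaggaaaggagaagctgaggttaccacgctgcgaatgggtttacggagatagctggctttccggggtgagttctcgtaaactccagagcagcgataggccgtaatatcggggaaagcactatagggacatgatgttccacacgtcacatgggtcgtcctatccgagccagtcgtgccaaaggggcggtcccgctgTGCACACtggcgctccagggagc
Mt2: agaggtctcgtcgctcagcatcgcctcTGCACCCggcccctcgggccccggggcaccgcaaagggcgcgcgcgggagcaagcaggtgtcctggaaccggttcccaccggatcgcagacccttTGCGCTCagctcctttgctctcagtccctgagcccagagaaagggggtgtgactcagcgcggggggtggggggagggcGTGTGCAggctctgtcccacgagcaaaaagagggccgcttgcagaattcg
Slc30a1: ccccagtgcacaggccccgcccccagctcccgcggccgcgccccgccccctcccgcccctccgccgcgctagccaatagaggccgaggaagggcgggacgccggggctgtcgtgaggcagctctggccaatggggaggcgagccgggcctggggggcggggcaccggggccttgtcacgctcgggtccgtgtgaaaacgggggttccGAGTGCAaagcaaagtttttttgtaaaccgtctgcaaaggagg

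The window held 3 cores for Mt2 and 1 each for Mt1 and Slc30a1, none overlapping. The gene starts given above (94179082 for Mt1, 94172664 for Mt2) do not follow directly on the window ends (94179088 and 94172617). Bases outside the windows were not searched, so these numbers are not those of whole promoters and do not rank the genes. Of 32851 promoter windows of this length in the RefSeq table, 21.4% held at least 1 core and 1.26% at least 3. Among the called genes, 33 of 54 had an entry in the table and 12 of these (36.4%) held a core, beside 23.8% of the 27025 gene symbols in the table. A match is a run of letters and not a measured binding site.

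Mt1 stood at 177, 183, 166, 140 and 268 CPM in the vehicle libraries of 6 weeks and at 214, 233, 243 and 184 CPM in the cadmium libraries. At 18 weeks the vehicle libraries ran from 90.5 to 209 CPM (median 133), and the cadmium libraries held 260, 171, 232, 393 and 223 CPM. In culture, vehicle islets held 178, 160, 188, 211 and 170 CPM and cadmium islets 277, 276, 305, 295 and 243 CPM. The groups overlapped at 6 and at 18 weeks, and in culture every cadmium library of Mt1 lay above every vehicle library. Non-overlap with cadmium on the higher side was found in 0.317% of all genes in culture, 0.845% at 6 weeks and 0.907% at 18 weeks, and Mt1 was the only called gene with it in culture. Mt1 rose by 0.58 ± 0.12 on the log2 scale, 1.5-fold (edgeR adjusted p = 0.0274), with 0.23 ± 0.21 at 6 weeks, 0.84 ± 0.19 at 18 weeks and 0.62 ± 0.20 in culture. The edgeR test of a difference between the settings gave an adjusted p of 0.440 for Mt1, which does not show the effects to be equal.

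The call of Mt1 lay near the threshold. It was lost when the acinar share of each library entered the fit as a covariate (0.47 ± 0.14, edgeR adjusted p = 0.9999). It was also lost without any 1 of these 9 libraries: vehicle 3 or 4 of 6 weeks, vehicle 1, 2, 3 or 6 of 18 weeks, cadmium 3 or 4 of 18 weeks, and cadmium 1 of culture (edgeR adjusted p from 0.0508 to 0.0803). With 18 weeks or 96 hours left out the adjusted p of Mt1 was 0.352 or 0.341 (edgeR). It was 0.0559 with equal weight for the settings, 0.0704 without the 3 shallow libraries of 18 weeks and 0.152 over genes with a mean of at least 10 counts in each group (edgeR). Its difference was positive in every setting fitted under all 44 alternatives. Of these, 30 left out 1 library and kept the others, so they are not separate evidence.

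Mt2 also had a higher mean with cadmium in each setting and did not pass. The 6-week vehicle libraries held 37.8, 39.4, 34.1, 26.0 and 61.5 CPM and the cadmium libraries 42.1, 51.4, 57.0 and 32.4 CPM. At 18 weeks Mt2 ran from 1.34 to 4.46 CPM in vehicle (median 2.54) and stood at 6.31, 4.26, 6.24, 10 and 4.51 CPM with cadmium. Culture gave 1.76, 1.09, 1.83, 2.31 and 1.51 CPM in vehicle and 2.12, 2.55, 3.87, 3.4 and 2.52 CPM with cadmium. The groups of Mt2 overlapped in each setting, and its level at 18 weeks and in culture was far below that at 6 weeks in both arms. Its common log2 fold change was 0.65 ± 0.16 (edgeR adjusted p = 0.0722), with 0.20 ± 0.23, 1.08 ± 0.25 and 0.77 ± 0.31 in the 3 settings, and DESeq2 called it (adjusted p = 0.0236). Mt3, the metallothionein best known from brain, was at 0.12 ± 0.10 (edgeR adjusted p = 0.738). Of the 3 metallothioneins measured, 1 was called higher and 0 lower, with a median of 0.58.

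**Figure D2:**
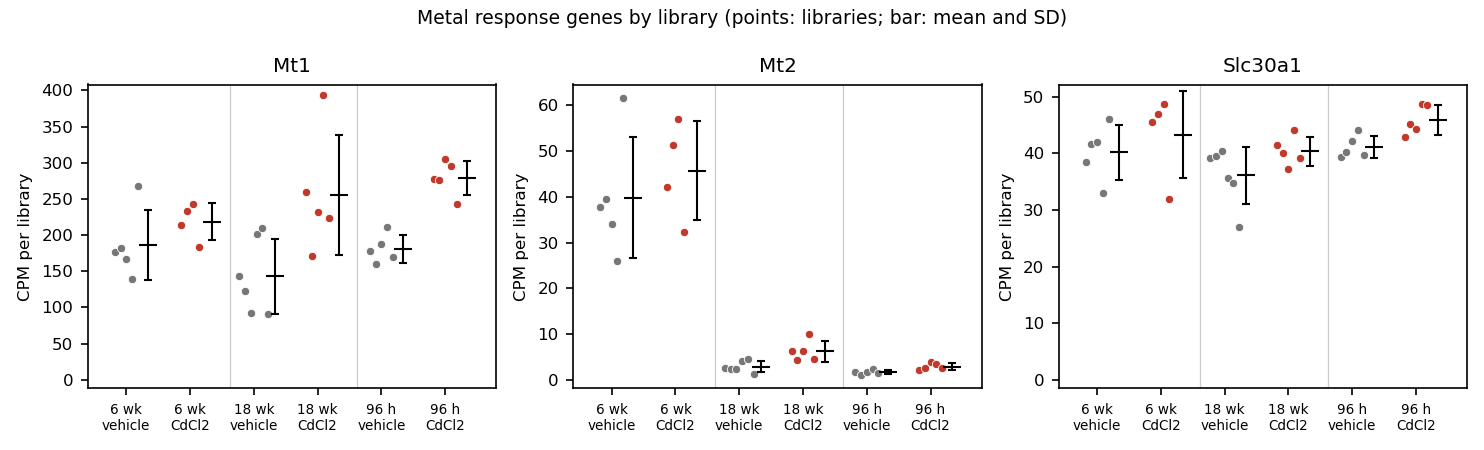
CPM of Mt1, Mt2 and Slc30a1 (vertical axes, linear from 0) in each library of the 6 groups; grey points are vehicle, red points cadmium, and black bars mean and SD. For Mt1 in culture the red points (243 to 305 CPM) clear all grey points (160 to 211 CPM), while the groups overlap for Mt1 in vivo and for Mt2 throughout.

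Most other genes of metal handling did not pass. Of 22 measured MTF1 and zinc transporter genes, 1 was called higher (Slc39a4) and 0 lower, with a median log2 fold change of 0.02. Slc30a1 encodes the zinc exporter ZnT1 of the plasma membrane. It stood at 0.11 ± 0.10 at 6 weeks, 0.15 ± 0.093 at 18 weeks and 0.16 ± 0.097 in culture, and its common log2 fold change of 0.14 ± 0.055 did not pass (edgeR adjusted p = 0.437).

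Slc39a4 encodes the zinc importer ZIP4, best known from gut epithelium. It stood at 0.393, 0.802, 0.610, 0.451 and 0.919 CPM in vehicle and 1.88, 3.21, 1.5 and 0.825 CPM in cadmium libraries of 6 weeks. At 18 weeks Slc39a4 ran from 0.0963 to 0.366 CPM in vehicle (median 0.121), and cadmium libraries held 0.172, 1.06, 1.20, 1.95 and 0.0939 CPM. The groups of Slc39a4 overlapped in every setting, and in culture it averaged 7.8 counts per library. It rose by 1.61 ± 0.33 on the log2 scale (edgeR adjusted p = 0.0263), with 1.54 at 6 weeks, 2.64 at 18 weeks and 0.41 in culture. Slc39a8, whose product ZIP8 also carries cadmium, was at 0.77 ± 0.19 (edgeR adjusted p = 0.0785), and Slc39a5, which encodes the importer ZIP5, at 1.49 ± 0.35 (edgeR adjusted p = 0.0621). Neither Slc39a8 nor Slc39a5 passed in the common fit. Slc39a5 passed in 3 of 30 fits without 1 library and 2 of 13 other alternatives, and Slc39a8 in 1 of 30 and 1 of 14.

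Digestive enzyme and zymogen granule genes held the most calls of any list examined. Of 38 acinar markers measured, 14 were called higher and 0 lower, and all 38 had a positive common effect (median 1.90). Their median was 0.63 at 6 weeks and 3.42 at 18 weeks, and −0.29 in culture, where 16 of the 38 averaged 10 counts or more. Prss3 was at 14.3, 24.1, 33.8, 9.65 and 11.6 CPM in vehicle and 49.7, 64.0, 33.6 and 65.8 CPM in cadmium islets of 6 weeks. At 18 weeks Prss3 ran from 1.85 to 21.6 CPM in vehicle (median 3.81) and from 15 to 228 CPM with cadmium (median 55.7). At 6 weeks 1 cadmium library of Prss3 lay just under the highest vehicle library, at 18 weeks 1 cadmium library lay within the vehicle range, and in culture it had 0 to 6 reads per library. Prss3 rose by 2.69 ± 0.45 (edgeR adjusted p = 0.0154).

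Other called acinar genes were also highest at 18 weeks. Zg16 of the zymogen granule rose by 2.20 ± 0.43, Gp2 of the granule membrane by 2.32 ± 0.47, Serpini2, an acinar serpin gene, by 1.92 ± 0.38 and Cuzd1 by 2.44 ± 0.42. Pla2g1b, the secreted phospholipase, rose by 2.37 ± 0.43, and Spink1, the trypsin inhibitor gene, by 2.36 ± 0.44; edgeR adjusted p-values of these 6 genes ran from 0.0154 to 0.0263. In culture Cuzd1, Pla2g1b and Spink1 were at −0.42, −0.35 and −1.16 on 1.4, 4.5 and 2.6 counts per library. The called genes 1810009J06Rik (5.74 ± 0.94) and Gm5771 (2.64 ± 0.50), which had no single direction, averaged 0.1 and 1 counts in culture. They and Prss3 lie in a family of near-identical trypsinogen genes, and how shared reads were divided is not known, so single members are uncertain. With the acinar share as a covariate, 0 genes were called by edgeR, and the common effects of Zg16, Gp2 and Serpini2 became −0.069, −0.077 and −0.11. Other called genes kept a positive value without passing, among them Mmp7 (2.99 ± 0.69), Slc39a4 (1.18 ± 0.33), Prss3 (0.90 ± 0.43), Cldn8 (0.63 ± 0.25) and Serpinb1a (0.59 ± 0.17). That share is summed from the 38 markers, 14 of which are among the called genes.

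In the same libraries the acinar share was on average higher with cadmium in both in vivo settings and not in culture. It was 2.78 to 5.14% in vehicle and 3.79 to 8.39% in cadmium islets at 6 weeks, and 0.269 to 1.88% against 1.66 to 19.8% at 18 weeks. In culture it was 0.0082 to 0.0153% in vehicle and 0.00833 to 0.0131% with cadmium, and the ranges overlapped in each setting. At 18 weeks 4 of 5 cadmium libraries lay above every vehicle library. When acinar and Reg genes were left out before scaling, 22 genes stayed called, all among the 54. The 14 called acinar markers were not in that fit and could not stay called, so part of this fall was fixed in advance.

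**Figure D3:**
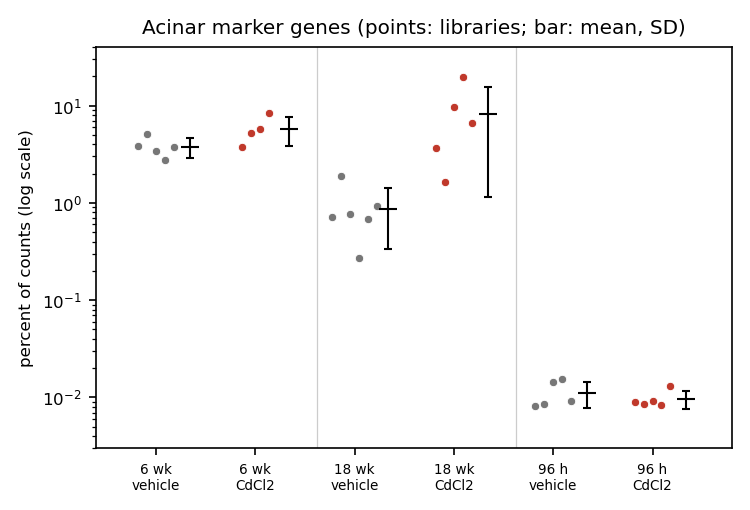
Share of each library's counts in the acinar marker genes (vertical axis, percent, log scale) for the 6 groups; grey points are vehicle, red points cadmium, and black bars mean and SD. The share spans 0.269 to 19.8% at 18 weeks with cadmium mostly above vehicle, and stays between 0.0082 and 0.0153% in all 10 culture libraries.

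Of 18 measured duct markers, 1 was called, the trefoil factor gene Tff2 (2.01 ± 0.41, edgeR adjusted p = 0.0263), and all 18 were positive with a median of 0.64. Krt19, the keratin that marks ducts, was at 1.70 ± 0.39 (edgeR adjusted p = 0.0566), the mucin gene Muc1 at 1.04 ± 0.27 (edgeR adjusted p = 0.0889) and the clusterin gene Clu at 0.56 ± 0.14 (edgeR adjusted p = 0.0729). These 3 did not pass in the common fit. Krt19 passed in 5 of 30 fits without 1 library and 2 of 14 other alternatives, and Muc1 and Clu each in 1 of 30 and 1 of 14. Duct markers took 0.0622 to 0.0742% of counts in vehicle and 0.0672 to 0.0924% in cadmium islets of 6 weeks, 0.0439 to 0.0634% and 0.0668 to 0.116% at 18 weeks, and 0.0585 to 0.0663% and 0.0641 to 0.0840% in culture. The part of the duct share in the results was not tested.

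Some lists of further cell type markers had mostly 1 sign in the common fit, with medians that differed by setting, and edgeR called 0 of their genes. Of all 22721 genes tested, 51.2% were positive and 1386 were higher at an unadjusted edgeR p under 0.05. Of 22 stellate and fibroblast markers, 20 were positive and 12 of these had an unadjusted edgeR p under 0.05, with a median log2 fold change of 0.46 (in culture 0.47, at 18 weeks 1.12, at 6 weeks −0.12). Their summed share was 0.0485 to 0.0901% of counts in vehicle and 0.0470 to 0.0928% in cadmium islets of 6 weeks, 0.0266 to 0.0387% and 0.0305 to 0.0425% at 18 weeks, and 0.103 to 0.220% and 0.144 to 0.318% in culture. All 17 lymphocyte markers were positive in the common fit, and in culture the median was 0, beside 2.12 at 18 weeks and −0.53 at 6 weeks. By edgeR 0 of them had an unadjusted edgeR p under 0.05. The lymphocyte share was 0.00154 to 0.0116% in vehicle and 0.00139 to 0.0719% in cadmium islets of 18 weeks. The 5 erythroid markers were all negative in the common fit, 4 of them at an unadjusted edgeR p under 0.05, with a median of −0.71. By setting their median was −0.75 at 6 weeks, −0.74 at 18 weeks and 1.64 in culture, where 1 of the 5 averaged 10 counts or more. The groups overlapped in both shares in every setting given, and their part in the results was not tested.

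Gjb1 and Gjb2 encode connexins 32 and 26, which form the gap junctions of acinar and other epithelial cells. Gjb1 was at 2.62, 2.85, 2.24, 2.15 and 2.09 CPM in vehicle and 3.82, 4.46, 4.19 and 4.67 CPM in cadmium islets of 6 weeks. At 18 weeks Gjb1 ran from 0.210 to 1.30 CPM in vehicle (median 0.380) and stood at 2.38, 1.56, 4.48, 12.9 and 2.96 CPM with cadmium. The groups of Gjb1 did not overlap in either in vivo setting, and in culture Gjb1 had 0 or 1 reads per library. Of all genes tested, 0.845% at 6 weeks and 0.907% at 18 weeks had groups apart with cadmium higher. The call used the same libraries and favours such genes. Gjb1 rose by 2.0 ± 0.36 and Gjb2 by 2.01 ± 0.39 (edgeR adjusted p = 0.0154 and 0.0248). Cldn8 rose by 1.66 ± 0.29 and the adapter gene Sh2d4a by 1.74 ± 0.35 (edgeR adjusted p = 0.0154 and 0.0263). Cldn8 and Sh2d4a averaged 0.9 and 3.4 counts in culture, so their positive values there (2.5 and 1.84) rest on few reads.

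Serpinb1a, which encodes an inhibitor of neutrophil elastase and related proteases, had 1 direction on 11 to 40 counts per library in culture. It stood at 6.57, 9.04, 6.06, 3.93 and 7.07 CPM in vehicle and 8.40, 9.03, 7.69 and 11.2 CPM in cadmium islets of 6 weeks. At 18 weeks Serpinb1a ran from 1.18 to 3.03 CPM in vehicle (median 1.51) and stood at 5.55, 6.99, 11.1, 23.4 and 7.23 CPM with cadmium. Culture gave 0.395, 0.599, 0.517, 0.588 and 0.667 CPM in vehicle and 0.615, 1.40, 0.562, 0.991 and 1.29 CPM with cadmium. The groups of Serpinb1a were apart at 18 weeks and overlapped at 6 weeks and in culture. At 18 weeks 0.907% of all genes tested were apart with cadmium higher. Serpinb1a rose by 1.43 ± 0.27, 2.70-fold (edgeR adjusted p = 0.0197), with 0.47 ± 0.30, 2.62 ± 0.30 and 0.81 ± 0.42 in the 3 settings. The size differed between settings at an unadjusted edgeR p of 5.95e-05, which did not pass after adjustment (adjusted p = 0.0581).

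When each setting was fitted on its own libraries, 3 of 16202 genes that could be tested in all 3 (0.0185%) had an unadjusted edgeR p under 0.05 in each with the same sign. Serpinb1a was one, at 0.47, 2.63 and 0.81 in these separate fits. Cdh6, the gene of a kidney-type cadherin, was at 0.80 ± 0.34, 1.84 ± 0.62 and 0.65 ± 0.21. Of the 3, the common fit called Serpinb1a alone, and Cdh6 had an edgeR adjusted p of 0.0940. The groups of Cdh6 overlapped in every setting. Of all genes tested, 0 had groups that did not overlap in the same direction in all 3 settings.

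Among the called genes with 10 counts or more in culture, several stood outside both the acinar and the duct list. The descriptions in this and the next paragraph concern genes picked after their values were seen. Cachd1, which encodes a protein related to calcium channel accessory subunits, was at 0.898, 1.16, 0.999, 0.735 and 1.37 CPM in vehicle and 1.95, 2.19, 1.30, 1.27 and 1.39 CPM in cadmium cultures. The groups of Cachd1 overlapped in culture through vehicle library 5, and did not overlap at 18 weeks. At 18 weeks 0.907% of all genes tested were apart with cadmium higher. Cachd1 rose by 0.69 ± 0.15 (edgeR adjusted p = 0.0369), with 0.24, 1.16 and 0.65 in the 3 settings. Lamb3, the laminin beta 3 gene, rose by 1.40 ± 0.31, Myo5c, a myosin gene of secretory epithelia, by 1.41 ± 0.29 and Fam83f by 0.67 ± 0.14. In culture Lamb3, Myo5c and Fam83f were at 0.75, 0.97 and 0.34 on 16.4, 11.5 and 16.1 counts per library.

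Mmp7, the gene of the secreted protease matrilysin, and Gabrp, which encodes a GABA type A receptor subunit of epithelia, had values above 2 in each setting, with SEs near 1. Mmp7 was at 3.14, 4.26 and 2.49 and Gabrp at 2.69, 3.18 and 2.45, with edgeR adjusted p-values of 0.0263 and 0.0273 in the common fit. A few libraries carried these values. At 6 weeks Mmp7 stood at 0.0213, 6.42, 0.371 and 0.529 CPM and Gabrp at 0.0640, 11.2, 1.02 and 0.634 CPM in the cadmium libraries, so library 2 led both. In culture Mmp7 was at 2.39, 3.20, 0.0703, 0.248 and 4.04 CPM and Gabrp at 1.61, 1.94, 0.141, 0.389 and 2.14 CPM with cadmium, where libraries 1, 2 and 5 were high for both genes. In vehicle cultures Mmp7 was at 0.0359, 0.599, 0.344, 0 and 0.772 CPM, and Gabrp at 0, 0.634, 0.207, 0 and 0.281 CPM. Krt19 was also highest in cadmium cultures 1, 2 and 5, at 1.33, 1.40 and 1.49 CPM beside 0.457 and 0.743 CPM in the others, and the summed stellate and fibroblast markers were highest in the same 3 (0.195, 0.318 and 0.239% of counts beside 0.144 and 0.175%). In vehicle cultures these markers were highest in libraries 2 and 5 (0.220 and 0.181%). The part of either in the values of Mmp7 and Gabrp was not tested. The groups of Mmp7 and Gabrp overlapped in all 3 settings.

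Synj2, the gene of the inositol phosphatase synaptojanin 2, had 998 counts per library in culture. It stood at 31.4, 31.6, 32.4, 31.4 and 32.5 CPM in vehicle and 38.2, 40.1, 34.3 and 38.6 CPM in cadmium islets of 6 weeks. At 18 weeks Synj2 ran from 23.9 to 30.7 CPM in vehicle (median 27.8) and from 33.6 to 37.3 CPM with cadmium. The groups of Synj2 did not overlap in either in vivo setting. Groups were apart with cadmium higher in 0.845% of all genes at 6 weeks and 0.907% at 18 weeks. The share apart in both was not computed. Culture held 33.6 to 36.4 CPM in vehicle and 33.6 to 36.1 CPM with cadmium, ranges that nearly coincide. Synj2 rose by 0.20 ± 0.039 (edgeR adjusted p = 0.0263), with 0.25 ± 0.054, 0.34 ± 0.049 and −0.0069 ± 0.052 in the 3 settings. The edgeR test of a difference between the settings did not pass for Synj2 (adjusted p = 0.0634). With 96 hours left out, edgeR called 1 gene, and the value of Synj2 in that fit is not given here.

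**Figure D4:**
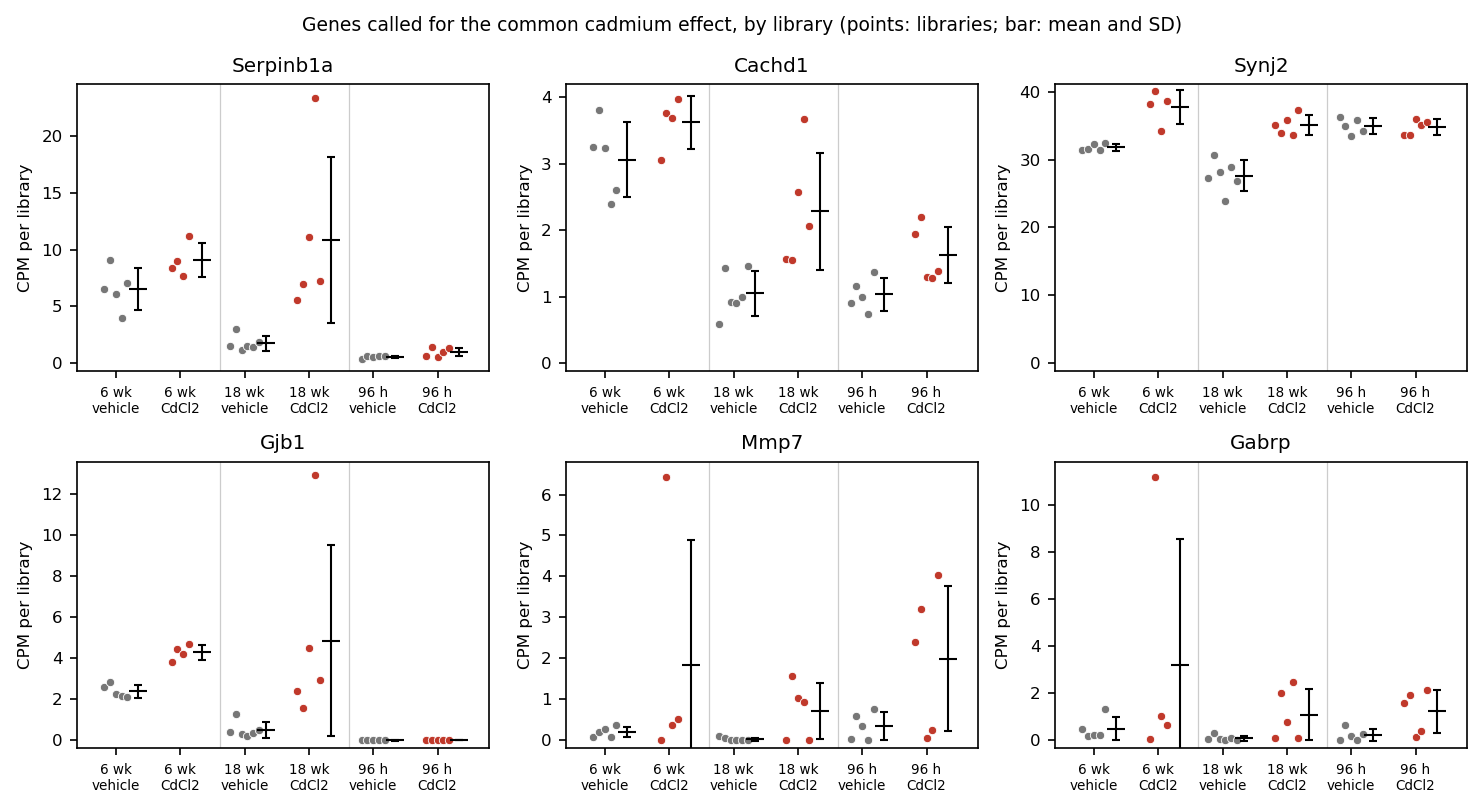
CPM (vertical axes, linear) of 6 called genes in each library of the 6 groups; grey points are vehicle, red points cadmium, and black bars mean and SD. At 18 weeks the red points of Serpinb1a, Cachd1, Synj2 and Gjb1 clear all grey points, 1 library leads Mmp7 and Gabrp at 6 weeks (6.42 and 11.2 CPM, SD bar running below the axis), and Gjb1 is near 0 in culture.

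In the common edgeR fit no gene was called lower, and the 5 genes of smallest p with 1 negative direction did not pass. They were Gmds of fucose synthesis (−0.14 ± 0.032, edgeR adjusted p = 0.0621), Chtf8 of sister chromatid cohesion (−0.12 ± 0.029, adjusted p = 0.0669), the RNA exosome helicase gene Mtrex (−0.12 ± 0.029, adjusted p = 0.0729), the centromere chaperone gene Hjurp (−0.14 ± 0.036, adjusted p = 0.0755) and Tmtc4 (−0.14 ± 0.037, adjusted p = 0.0843). Gmds stood at 29.3 to 31.1 CPM in vehicle and 26.3 to 27.6 CPM in cadmium islets of 6 weeks, which did not overlap. The share of all genes apart in this direction at 6 weeks was not computed. Gmds ran from 33.4 to 40.5 and 31.0 to 35.1 CPM at 18 weeks, and from 27.1 to 33.0 and 27.4 to 29.7 CPM in culture, where the groups overlapped. DESeq2 called all 5 lower, with adjusted p-values from 0.0141 to 0.0175. The edgeR fit without cadmium 1 of 18 weeks called Gmds, Chtf8, Mtrex and Tmtc4 lower (adjusted p from 0.0467 to 0.0471). Gmds also passed without vehicle 2 or 5 of culture, Mtrex without vehicle 2 of culture or vehicle 2 of 6 weeks, Chtf8 without cadmium 3 of culture and Hjurp without cadmium 5 of 18 weeks (edgeR adjusted p from 0.0316 to 0.0441). Over the 5 genes the effects ran from −0.21 to −0.04 in the 3 settings.

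Genes that define the endocrine cells were not called. Common effects were 0.005 ± 0.059 for Ins1 and 0.013 ± 0.079 for Ins2 (insulin), −0.006 ± 0.062 for Gcg (glucagon), 0.002 ± 0.071 for Sst (somatostatin) and 0.18 ± 0.13 for Ppy (pancreatic polypeptide). Their edgeR adjusted p-values ran from 0.671 to 0.998, and the signs of Ins1 and Sst turned with another scaling (−0.0034 and −0.0074). Of 30 measured beta cell identity genes, 0 were called by edgeR, 12 were positive and the median was −0.02. Among those of smallest p were Esrrg, a nuclear receptor of mature beta cells (−0.16 ± 0.062), G6pc2, the islet glucose-6-phosphatase (−0.21 ± 0.093), and Prlr, the prolactin receptor (−0.15 ± 0.071). Their edgeR adjusted p-values ran from 0.444 to 0.544. By setting G6pc2 was negative throughout, while Esrrg was at 0.0009 in culture and Prlr at 0.057 at 6 weeks.

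In the common edgeR fit no oxidative stress gene on the lists passed. Of 31 measured NRF2 targets and glutathione genes, 0 were called by edgeR and 27 (87.1%) were positive, beside 51.2% of all genes tested, with a median of 0.04. By setting the median was 0.009 at 6 weeks, 0.15 at 18 weeks and −0.002 in culture. A mostly positive sign was not particular to this list. The positive share varied widely between lists, with 95.5% of 22 glycolysis genes and 30% of 30 unfolded protein response genes. Of 22 antioxidant enzyme genes, 0 were called by edgeR and 15 were positive, with a median of 0.03. The glutathione transferase gene Gsta4 stood at 0.861, 1.12, 0.571, 0.516 and 1.54 CPM in vehicle and 3.03, 2.78, 1.21 and 0.592 CPM in cadmium islets of 6 weeks, and was at 1.09 ± 0.25 over the settings (edgeR adjusted p = 0.0502). Gsta3 was at 1.05 ± 0.29 (edgeR adjusted p = 0.124), Gstp1 at 0.29 ± 0.097 (edgeR adjusted p = 0.286) and the cystine transporter gene Slc7a11 at 0.51 ± 0.19 (edgeR adjusted p = 0.381). Gsta4 passed in 7 of 30 fits without 1 library and 2 of 14 other alternatives, and Gsta3 in 0 of 30 and 1 of 14. Hmox1, heme oxygenase 1, a common target of cadmium in other cells, was at 0.04 ± 0.12 (edgeR adjusted p = 0.951).

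The direction of the effect over all 22721 genes showed how far the settings shared it. Signs were the same at 6 and 18 weeks in 39.0% of genes, at 6 weeks and in culture in 48.6%, and at 18 weeks and in culture in 52.1%. The rank correlation of the effects across genes was −0.22 between 6 and 18 weeks, −0.005 between 6 weeks and culture and 0.078 between 18 weeks and culture. Genes are not independent and share each setting's libraries, so these values are a description. The 3 settings share no library.

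A cadmium effect that differed between settings was called in 8 genes (0.0352%). Dusp26, a phosphatase gene, ran from 14.3 to 17.8 CPM in vehicle and 23.2 to 39.3 CPM in cadmium islets at 18 weeks, which did not overlap. Of all genes tested, 0.907% were apart at 18 weeks with cadmium higher. At 6 weeks Dusp26 was at 26.2 to 34.3 and 26.9 to 31.7 CPM, and in culture at 17.4 to 21.6 and 15.8 to 19.1 CPM. Its log2 fold changes were −0.03 ± 0.11, 0.77 ± 0.10 and −0.09 ± 0.11. Cela1, the elastase 1 gene, was at 0.41, 3.35 and −0.17, Prpf19, a splicing factor gene, at 0.002, 0.38 and −0.04, and Pdk2, a pyruvate dehydrogenase kinase gene, at −0.08, 0.46 and −0.06. Cbr2, a carbonyl reductase gene, was at −2.17 at 6 weeks and 3.66 at 18 weeks. All 5 had an interaction adjusted p of 0.0301 (edgeR). The rest of the 8 were not highest at 18 weeks. Muc6 was at 4.92, 0.10 and 0.13, Gm37755 at 0.22, −0.80 and 0.16 and Nsd3 at 0.07, −0.28 and −0.02. None of the 8 was called for the common effect.

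**Figure D5:**
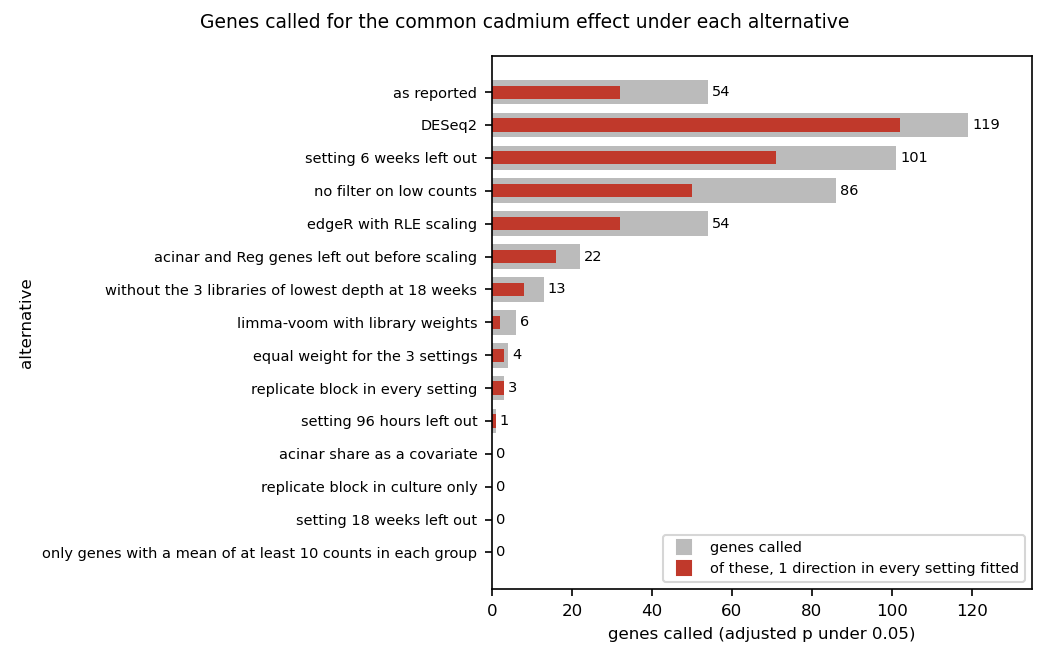
Number of genes called for the common cadmium effect (horizontal axis, grey bars with their number) under each alternative (vertical axis), and how many of these had 1 direction in every setting fitted (red bars). The count is 54 as reported, 119 with DESeq2 and 0 in 4 alternatives, among them that without 18 weeks.

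The count of called genes moved with the 18-week libraries. With 18 weeks left out 0 genes were called by edgeR, with 96 hours left out 1, and with 6 weeks left out 101. Without 1 vehicle library of 18 weeks, libraries 1 to 6 in turn, 9, 33, 7, 26, 9 and 3 genes were called. Without cadmium library 2, 3 or 4 of 18 weeks the number was 93, 19 or 35. Without vehicle 3 or 4 of 6 weeks it was 28 or 16, without cadmium 1 of 6 weeks 91, and without cadmium 1 of culture 34. Without cadmium 1 of 18 weeks 75 genes were called, 4 of them lower, and some other fits without 1 library held 1 or 2 lower genes.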

How the data were processed

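RNA of 30 islet libraries was measured by RNA-seq, and the authors deposited raw read counts per gene for each library. Per the submitters' processing notes, cutadapt 1.13, STAR, HTSeq 0.6.1p1 and DESeq2 were used with build mm10. Annotation release, strand setting and multi-mapping rule: not given in the sources used here. Overlapping, antisense and near-identical genes (trypsinogens, Klk1b4 and Klk1b5, Ins1 and Ins2) are therefore uncertain.

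The counts were tested in R 4.3.3 with edgeR 4.0.16 (quasi-likelihood, TMM) after filterByExpr (minimum count 10, minimum total 15, 6 groups). The common effect came from setting plus treatment, the effect of each setting and the test of their difference from 6 group means, and a further fit used each setting alone. P-values were Benjamini-Hochberg adjusted over all genes tested, with a threshold of 0.05. Alternatives used limma 3.58.1, DESeq2 1.42.0, other scalings, filters, covariates and left-out libraries or settings. The requirement of a mean of at least 10 counts in each group was chosen after seeing the data. The script was tested on simulated data.

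Gene names came from a table of identifiers and symbols. No pair of libraries held identical counts. The rule for named genes took the 12 called genes of smallest p with 1 direction, the 5 lower genes of smallest p with 1 direction, metal and hormone genes, leading members of the lists, 5 genes whose effect differed between settings, the genes that passed in each separate fit and 5 called genes without 1 direction. Some genes that this rule names are not reported here. The question, members and lists were chosen with earlier results of these data known.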

Additional observations from a re-analysis of the deposited data

Results flagged for a closer look

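In 323 groups of 4 to 6 libraries (58 genes and the marker shares, with a mean of at least 10 counts), 30 had a highest or lowest library far from the others (9.29%). Chance flags about 1 in 20 groups.

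Vehicle library 2 of 18 weeks stood above its group for Gjb1 (1.3 CPM, next 0.489), Serpinb1a (3.03, next 1.83), Sh2d4a (1.41, next 0.611), Krt19 (2.58, next 0.844), Cdh6 (0.895, next 0.224), Gm13381 (3.11, next 1.1) and Gamt (3.54, next 2.24). Cadmium library 4 of 18 weeks stood above its group for Gjb1 (12.9, next 4.48), Slc39a8 (4.87, next 2.27), Clu (358, next 193) and Gamt (31.8, next 11.8), and below it for Prlr (355, next 517). Vehicle library 5 of 6 weeks was highest for Cldn8 (2.71, next 1.69), Sh2d4a (3.06, next 1.77), Krt19 (9.45, next 4.03), Gabrp (1.35, next 0.505) and Lamb3 (2.5, next 1.77). Cadmium library 2 of 6 weeks was highest for Mmp7 (6.42, next 0.529) and Gabrp (11.2, next 1.02).

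Single values far from their group were 1810009J06Rik in cadmium 1 of 18 weeks (81 CPM, next 5.41), Gm5771 in vehicle 3 of 6 weeks (19.6, next 7.22) and in vehicle 1 of 18 weeks (13.7, next 2.48), and G6pc2 in vehicle 1 of 18 weeks (4392, next 2777). Others were Ppy in vehicle 2 of 6 weeks (3633, next 2453) and Dusp26 in vehicle 3 of 18 weeks (14.3, next 16.7). In culture they were Prlr in vehicle 2 (451, next 475), Gm13381 in cadmium 2 (0.683, next 0.354), the acinar share in cadmium 5 (0.0131%, next 0.00916%), the duct share in vehicle 1 (0.0585%, next 0.0658%) and the insulin share in vehicle 1 (13.7%, next 13.2%).

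The cadmium effects of Dusp26, Cbr2, Cela1, Prpf19 and Pdk2 differed between the settings (edgeR interaction test, adjusted p = 0.0301 for each).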

How the results depend on the processing

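The 54 calls, the 32 with 1 direction and the 8 genes with an effect that differed between settings became 119, 102 and 779 with DESeq2, and 6, 2 and 659 with limma-voom. With acinar and Reg genes left out they became 22, 16 and 3, in a fit where the 14 called acinar markers could not be called. With the acinar share as a covariate they became 0, 0 and 1. Without the 3 shallow libraries of 18 weeks they became 13, 8 and 1638, and with at least 10 mean counts in each group 0, 0 and 84. Without 6 weeks they became 101, 71 and 0, without 18 weeks 0, 0 and 0, and without 96 hours 1, 1 and 0. No filter gave 86 calls, 50 with 1 direction, equal weight for the settings gave 4 and 3, and RLE scaling gave 5 differing effects. Leaving out 1 library gave 3 to 93, 2 to 57 and 0 to 884. The 3 genes that passed in each separate fit became 15 with no filter, 0 with the covariate, 5 without the shallow libraries and 1 to 7 without 1 library. The cause of these changes was not tested.

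Same-numbered libraries correlated from −0.113 to 0.259, and 6 of 14 numbers correlated best with themselves. In culture the same-numbered correlations ran from 0.0153 to 0.137, and numbers 1, 2 and 3 correlated best with themselves. No label says what a number marks, so whether same-numbered libraries are paired is not known. A replicate block in every setting gave 3 calls, 3 with 1 direction, 186 differing effects and 10 genes in each separate fit, and a replicate block in culture only gave 0, 0, 0 and 7. With the block in every setting Mt1 and Mt2 passed (edgeR adjusted p = 0.00503 and 0.0417), and with the block in culture Mt1 did not (edgeR adjusted p = 0.0910).

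Signs turned for these genes. Under the covariate: Zg16 −0.069, Serpini2 −0.11, Gp2 −0.077, Hmox1 −0.084, Gcg 0.054, Ppy −0.013, Slc39a5 −0.13, Tff2 −0.13, Dusp26 −0.018, Cela1 −0.087 and Pdk2 −0.014. Under limma-voom: Hmox1 −0.046, Ins1 −0.014, Ins2 −0.019, Gcg 0.019, Sst −0.0060 and Pdk2 −0.010. Without 18 weeks: Hmox1 −0.047, Ins1 −0.069, Ins2 −0.091, Gcg 0.054, Sst −0.029, Ppy −0.077, Dusp26 −0.063, Prpf19 −0.025 and Pdk2 −0.077. Ins1 and Sst were −0.0034 and −0.0074 with DESeq2 and with RLE, −0.0011 and −0.0048 without acinar and Reg genes, −0.0034 and −0.0060 with no filter, and −0.0029 and −0.0068 at 10 mean counts. Cbr2 was 1.44 with DESeq2. Equal weight gave Ins1 −0.00087, Gcg 0.0010 and Cbr2 1.12, and the block in every setting Ins1 −0.00024, Gcg 0.031 and Sst −0.013. Gcg was 0.048 without the shallow libraries and Sst −0.022 without 6 weeks. Without 1 library the range was −0.57 to 0.30 for Cbr2, −0.041 to 0.018 for Gcg, −0.028 to 0.070 for Hmox1, −0.024 to 0.024 for Ins1, −0.043 to 0.041 for Ins2 and −0.052 to 0.024 for Sst.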
